A study of Mus musculus with 10 samples.

Results

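Histone genes were described across the newly made RNA and the KLF3 and KLF1 binding of mouse erythroid cell lines. The members are the rows of the RNA table whose gene name marks a clustered histone gene (Hist followed by a digit), a variant gene of the H2af or H3f3 series, or H1f0, H1fx or H1foo, with their rows in both annotated peak lists. They number 80 of 23309 rows, 67 from the replication-dependent clusters and 13 variants. The authors tested 65 of them, 56 clustered and 9 variant, among 9619 genes tested in all. The peak lists give histone genes 7 of 4579 KLF3 peaks and 4 of 3800 KLF1 peaks.

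J2E-KLF3-ER is a line made from J2E that carries KLF3, a repressor of the Krüppel-like family, fused to an estrogen receptor domain, with 1 RNA library from each of clones A, C and E (3 in all), every one induced with 200 nM 4-hydroxytamoxifen. J2E, an immortalised wild-type erythroid line from fetal liver without a transgene, gave 3 RNA libraries, of which 2 had received tamoxifen and the other one ethanol vehicle. All RNA libraries hold transcripts labelled with 500 µM 4-thiouridine for 30 minutes. KLF3 chromatin came from clone C alone, through an estrogen receptor antibody, and KLF1 chromatin from K1-ER clones A and C, which are Klf1-null erythroblasts with an inducible KLF1-ER fusion, through a KLF1 antibody. The chromatin libraries were made after 3 hours of induction with 200 nM 4-hydroxytamoxifen from 3 pooled replicates, and each had an input library. No induction time was recorded here for the RNA libraries. No J2E-KLF3-ER library without tamoxifen was analysed here, so the line, its clones, the drug and the fusion cannot be told apart.

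Histones are the proteins around which DNA is wrapped. H2A, H2B, H3 and H4 form the core of the nucleosome, and H1 binds the DNA between nucleosomes. Replication-dependent genes stand in clusters, have no introns, are transcribed mainly in S phase, and end their mRNA in a stem-loop that SLBP binds in place of a poly(A) tail. Variant genes such as H2afz and H3f3a stand alone, mostly have introns and poly(A) tails, and are used through the cell cycle. Erythroid precursors divide quickly while they condense their chromatin.

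In the authors' deposited table Klf3 stood at 180 FPKM in J2E-KLF3-ER and 7.46 FPKM in J2E, where FPKM is a level per transcript length and library size. Reads of the fusion and of the resident gene share that row. Klf1 stood at 55.6 FPKM in J2E-KLF3-ER and 122 FPKM in J2E, with a q-value of 0.00408. Esr1, an estrogen receptor gene, stood at 62.4 FPKM in J2E-KLF3-ER and 14.7 FPKM in J2E. Of 12 erythroid marker genes with a row, levels ran between 3.81 and 103 FPKM in J2E-KLF3-ER and between 6.21 and 133 FPKM in J2E. Of these 12, 4 (Epor, Slc4a1, Ermap and Kel) fell and 0 rose at a q-value below 0.05, beside 1.90% and 0.821% of all tested genes. Of 17 markers of other blood, stromal or endothelial cells, 11 were below 1 FPKM in both groups, among them Kit, Cd34 and Cd3e, none was listed at 0 in both, and Pf4 and Itga2b, megakaryocyte markers, were the highest at 92.4 and 80.8 FPKM in J2E-KLF3-ER and 80.1 and 74.98 FPKM in J2E. The summed level of that list was 198 FPKM in J2E-KLF3-ER and 187 FPKM in J2E, and that of the erythroid list 465 FPKM in J2E-KLF3-ER and 635 FPKM in J2E. The part of these shifts in the values below was not tested. In these bulk samples, fewer cells in S phase and less histone RNA per cell cannot be told apart. The table gives 1 pooled FPKM value per group, so library depth is unknown and levels carry no error.

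The summed level of histone RNA was nearly the same in both lines. The member rows summed to 9020 FPKM in J2E-KLF3-ER and 8791 FPKM in J2E in the authors' deposited table, of which the clustered rows made up 8573 FPKM in J2E-KLF3-ER and 8340 FPKM in J2E. These sums rest mostly on the most abundant rows and include rows that were not tested. The median level of the tested members was 67.7 FPKM in J2E-KLF3-ER and 82.5 FPKM in J2E. Of the 65 tested members 2 rose, 2 fell and 61 were not called at the authors' q-value below 0.05. The rising share was 3.08% beside 0.821% of all tested genes, and the falling share was 3.08% beside 1.90% of all tested genes. At an unadjusted p below 0.05 the members numbered 12 (18.5%), beside 15.4% of all tested genes. Of these 5 were higher, beside 7.93% of all tested genes, and 7 lower, beside 7.47%. At a q-value below 0.10 the members called were still 2 higher and 2 lower, beside 1.69% and 2.87% of all tested genes. With a 2-fold minimum added to a q-value below 0.05, 1 member was higher and 0 lower, beside 0.291% and 0.863% of all tested genes. The median log2 fold change was 0.03 over the members and 0.03 over all tested genes, and 50 of the 65 members stayed within 0.5 on that scale.

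**Figure D1:**
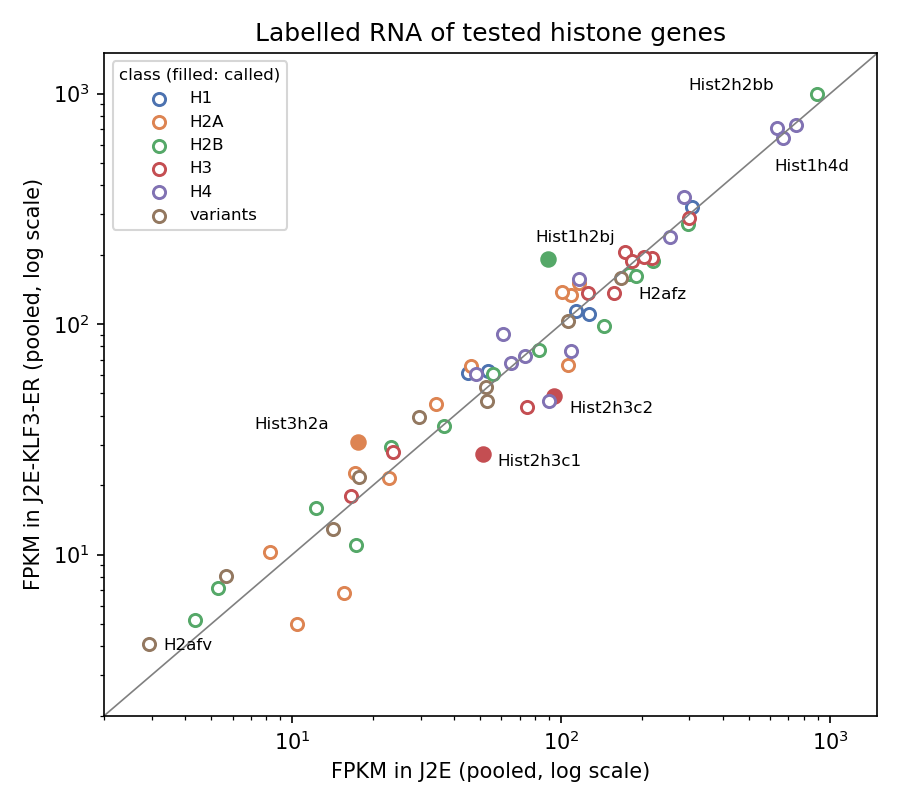
Pooled FPKM of the 65 tested histone genes in J2E-KLF3-ER (vertical axis) against J2E (horizontal axis), both on log scales, coloured by class, with filled points for a q-value below 0.05 and the line of equal levels. Most points lie close to that line, and the 4 filled points, Hist1h2bj and Hist3h2a above it and Hist2h3c1 and Hist2h3c2 below it, lie between 17.6 and 94.4 FPKM in J2E.

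The rising members were an H2B and an H2A gene, and the falling members were 2 H3 genes of 1 cluster. Hist1h2bj, which encodes an H2B of the large chromosome 13 cluster (mm9, chromosome 13, 22135099 to 22135479), stood at 192 FPKM in J2E-KLF3-ER and 89.6 FPKM in J2E in the authors' deposited table. It rose by 1.10 on the log2 scale, with q = 0.00408, as the authors' deposited table has it, the largest rise among tested members. Hist3h2a, an H2A gene of the small chromosome 11 cluster (58768187 to 58770176), stood at 30.9 FPKM in J2E-KLF3-ER and 17.6 FPKM in J2E in the authors' deposited table. It rose by 0.81 on the log2 scale (authors' deposited table, q = 0.00707). Hist1h2bj was thus 2.14-fold and Hist3h2a 1.76-fold higher in J2E-KLF3-ER than in J2E, from the levels in the authors' deposited table.

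Hist2h3c1 and Hist2h3c2 encode H3 in the chromosome 3 cluster. Hist2h3c1 (chromosome 3, 96050608 to 96052432) stood at 27.3 FPKM in J2E-KLF3-ER and 51.3 FPKM in J2E in the authors' deposited table. Hist2h3c2 (96042031 to 96043050) stood at 48.7 FPKM in J2E-KLF3-ER and 94.4 FPKM in J2E in the authors' deposited table. Their log2 fold changes were -0.91 and -0.96, each with a q-value of 0.00408 in the authors' deposited table. The q-value of 0.00408 is the lowest in the authors' deposited table, shared by 118 genes with a p-value of 5e-05. All 4 called rows come from pooled groups, so how the clones or the vehicle-treated J2E library contribute could not be examined.

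The sequences upstream of the called members, and of the clustered gene with KLF3 peaks at its start, are shown because promoter elements known from histone genes can be looked for in them. They are the 250 bases before each gene's RefSeq start, 5′ to 3′ on the gene's strand in GRCm38.p6, and capitals mark matches on either strand to 4 motifs. The CCAAT box and the TATAAA box are general promoter elements. The octamer was searched as ATTTGCAT. The GC-rich box of the kind that Krüppel-like factors bind was searched as CCNCNCCC. RefSeq now names them H2bc11 (chr13:22042948-22043197, plus strand), H2aw (chr11:58954435-58954684, plus), H3c14 (chr3:96246435-96246684, plus), H3c15 (chr3:96239128-96239377, minus) and H4c1 (chr13:23761250-23761499, minus).
Hist1h2bj: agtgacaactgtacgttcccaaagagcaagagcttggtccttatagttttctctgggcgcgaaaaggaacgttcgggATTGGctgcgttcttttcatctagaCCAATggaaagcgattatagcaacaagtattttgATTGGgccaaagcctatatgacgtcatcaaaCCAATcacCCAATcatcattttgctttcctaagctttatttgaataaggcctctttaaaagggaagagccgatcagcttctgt
Hist3h2a: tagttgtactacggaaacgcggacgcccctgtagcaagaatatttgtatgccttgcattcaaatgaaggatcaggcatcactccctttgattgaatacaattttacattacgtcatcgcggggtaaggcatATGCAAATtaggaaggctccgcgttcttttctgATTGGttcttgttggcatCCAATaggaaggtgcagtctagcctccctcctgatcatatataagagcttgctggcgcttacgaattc
Hist2h3c1: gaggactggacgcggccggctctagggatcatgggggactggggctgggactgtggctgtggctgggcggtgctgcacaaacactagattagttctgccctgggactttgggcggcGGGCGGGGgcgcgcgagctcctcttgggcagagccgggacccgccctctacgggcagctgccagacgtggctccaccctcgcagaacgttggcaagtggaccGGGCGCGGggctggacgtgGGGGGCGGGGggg
Hist2h3c2: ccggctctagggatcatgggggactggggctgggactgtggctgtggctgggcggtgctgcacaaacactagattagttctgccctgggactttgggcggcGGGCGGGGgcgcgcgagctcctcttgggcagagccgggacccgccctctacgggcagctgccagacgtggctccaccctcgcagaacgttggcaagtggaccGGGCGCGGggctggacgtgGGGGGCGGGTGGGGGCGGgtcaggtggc
Hist1h4a: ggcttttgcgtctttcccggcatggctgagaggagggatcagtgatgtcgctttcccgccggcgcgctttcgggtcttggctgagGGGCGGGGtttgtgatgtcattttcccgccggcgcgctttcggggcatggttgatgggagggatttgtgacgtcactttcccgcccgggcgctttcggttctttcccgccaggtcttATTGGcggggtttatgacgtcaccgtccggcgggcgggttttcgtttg

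The rising H2B and H2A genes carry CCAAT boxes and no CCNCNCCC, and the falling H3 pair carries CCNCNCCC and no CCAAT in these windows. Called or not, 17 of 17 H2A, 15 of 15 H2B and 8 of 10 H3 genes had a CCAAT box. CCNCNCCC lay in 7 of 17 H2A, 0 of 15 H2B and 3 of 10 H3 genes. A relation of these motifs to the direction of change was not tested. Hist1h2bj has 5 CCAAT boxes that begin between 173 and 75 bases upstream, and Hist3h2a has 2, at 86 and 68 bases upstream, with an octamer in reverse at 119. The Hist2h3c1 and Hist2h3c2 windows are copies of each other, with 234 of 235 aligned bases identical once they are offset by 15 bases, and hold 4 and 5 matches to CCNCNCCC, the last ones overlapping. The transcribed sequences were not compared here, so whether reads were divided between the Hist2h3c1 and Hist2h3c2 rows is uncertain. Hist1h4a has 1 CCNCNCCC match at 165 bases and 1 CCAAT box in reverse at 48 bases upstream.

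Promoter elements were counted by class over the 71 member rows with a RefSeq promoter. A CCAAT box, bound by the NF-Y factor, lay in the 250 upstream bases of 6 of 6 H1, 17 of 17 H2A, 15 of 15 H2B and 8 of 10 H3 genes, but 3 of 12 H4 genes, beside 33.9% of all 32841 promoters searched. The TATAAA box lay in 29 of 60 clustered genes (48.3%) beside 12.4% of all promoters. The octamer, known as the site through which OCT1 acts on H2B genes, lay in 6 of 15 H2B and 7 of 17 H2A genes. It lay in none of the H1, H3 and H4 genes, in 1 of 11 variant genes and in 1.60% of all promoters. In 8 pairs of these rows an H2A and an H2B gene start 180 to 335 bp apart in opposite directions. Their upstream windows overlap, so 1 match can be counted for both genes of a pair. CCNCNCCC was found in 10 of 12 H4 genes, 7 of 17 H2A genes, 3 of 10 H3 genes, 2 of 6 H1 genes and none of 15 H2B genes, beside 45.9% of all promoters and 7 of 11 variant genes. These matches are descriptions of letters and not of bound sites.

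**Figure D2:**
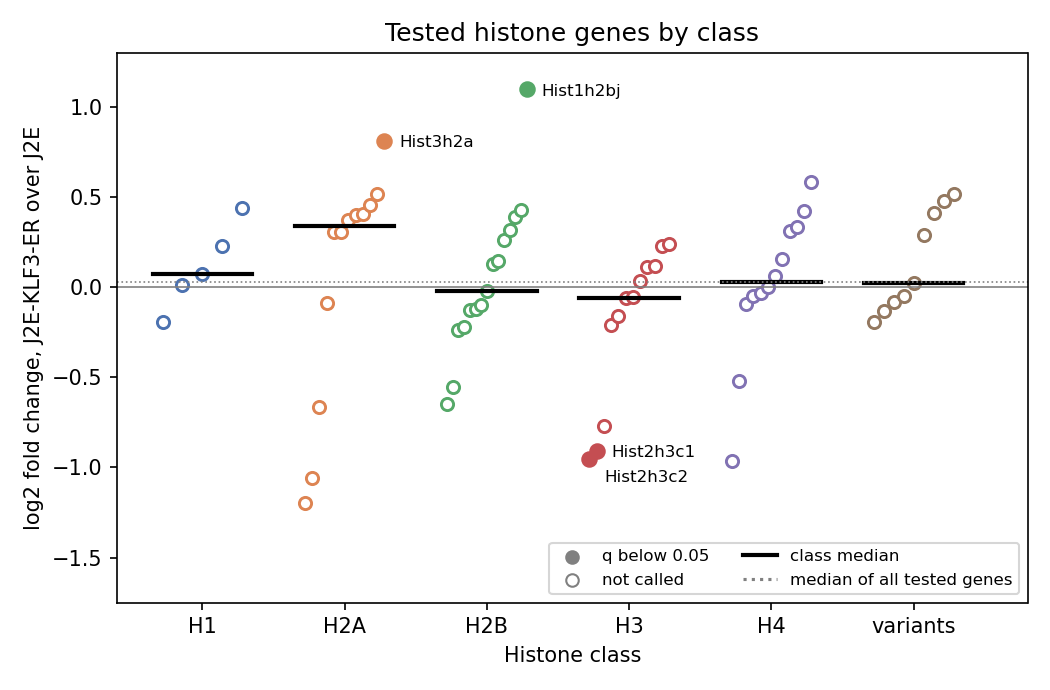
Log2 fold change of J2E-KLF3-ER over J2E for each tested histone gene by class, with filled points for a q-value below 0.05, bars for class medians and a dotted line for the median of all tested genes. Medians of H1, H2B, H3, H4 and variants lie between -0.06 and 0.07, the H2A median is 0.34, and the 4 called genes lie at the edges of H2A, H2B and H3.

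No linker histone gene was called. The 5 tested H1 genes lay close together, with log2 fold changes between -0.20 and 0.44 and a median of 0.07 in the authors' deposited table. Hist1h1b was the most abundant, at 323 FPKM in J2E-KLF3-ER and 307 FPKM in J2E in the authors' deposited table. Hist1h1e (114 and 113 FPKM) and Hist1h1c (110 and 126 FPKM, J2E-KLF3-ER and J2E) followed in the authors' deposited table. Hist1h1a, at 61.4 FPKM in J2E-KLF3-ER and 45.2 FPKM in J2E, had the largest difference, 0.44 on the log2 scale (authors' deposited table, q = 0.322), ahead of Hist1h1d at 0.23. Hist1h1t, the testis H1, was at 0.315 FPKM in J2E-KLF3-ER and 0.443 FPKM in J2E and was not tested. H1f0, the variant associated with cells that stop dividing, was at 8.10 FPKM in J2E-KLF3-ER and 5.65 FPKM in J2E in the authors' deposited table (log2 fold change 0.52, q = 0.325). H1f0 was below every tested clustered H1 gene in both lines.

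H2A genes gave the widest spread. Of 12 tested, 1 rose, none fell and 11 were not called, and their median log2 fold change was 0.34 in the authors' deposited table. In the chromosome 13 cluster 7 of 8 H2A genes lay above 0, with a median of 0.39, although none was called. The most abundant tested H2A genes by the mean of both groups were Hist1h2ag at 151 FPKM in J2E-KLF3-ER and 116 FPKM in J2E, Hist1h2ak at 138 FPKM in J2E-KLF3-ER and 100.4 FPKM in J2E, and Hist1h2ab at 134 FPKM in J2E-KLF3-ER and 108 FPKM in J2E in the authors' deposited table, with q-values between 0.344 and 0.516. Hist1h2ai stood apart at 6.81 FPKM in J2E-KLF3-ER and 15.6 FPKM in J2E in the authors' deposited table, with a log2 fold change of -1.20 and a q-value of 0.307. Median chromosome 13 log2 fold change was 0.22 over its 384 tested genes, and set against that value the H2A class median was 0.12.

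H2B genes split about evenly. Of 15 tested, 1 rose, none fell and 14 were not called, and 7 lay above and 8 below 0, with a median of -0.02 in the authors' deposited table. Hist2h2bb was the most abundant histone row of all, at 994 FPKM in J2E-KLF3-ER and 897 FPKM in J2E in the authors' deposited table. Hist1h2bl followed at 271 and 296 FPKM and Hist1h2bg at 189 and 220 FPKM, J2E-KLF3-ER and J2E, in the authors' deposited table. The rising Hist1h2bj was above Hist1h2bg in J2E-KLF3-ER and below it in J2E. Hist3h2ba, beside the rising Hist3h2a, was at 11.01 FPKM in J2E-KLF3-ER and 17.3 FPKM in J2E in the authors' deposited table (log2 fold change -0.65, q = 0.379). Between the Hist3h2ba and Hist3h2a rows lies the pseudogene Hist3h2bb-ps, listed at 4.46 FPKM in J2E-KLF3-ER and 1.23 FPKM in J2E in the authors' deposited table and not tested.

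Calls among H3 genes lay in the chromosome 3 cluster, and the difference between the clusters was not tested. In the chromosome 13 cluster all 9 H3 genes were tested and none was called, with log2 fold changes between -0.21 and 0.24 in the authors' deposited table. The highest, Hist1h3c, stood at 288 FPKM in J2E-KLF3-ER and 299 FPKM in J2E, and Hist1h3h and Hist1h3e at 195 and 194 FPKM in J2E-KLF3-ER and 203 and 217 FPKM in J2E, in the authors' deposited table. In the chromosome 3 cluster the H3 genes were Hist2h3c1, Hist2h3c2 and Hist2h3b, all between -0.77 and -0.96 on the log2 scale, and only Hist2h3b was not called (43.6 FPKM in J2E-KLF3-ER, 74.5 FPKM in J2E, q = 0.135 in the authors' deposited table). The Hist2h3b row is 411 bp long, against 1825 bp for Hist2h3c1 and 1020 bp for Hist2h3c2. Whether row length bears on which of these genes was called was not tested. Summed, the Hist2 H3 rows were at 120 FPKM in J2E-KLF3-ER and 220 FPKM in J2E. Hist1 H3 rows summed to 1388 FPKM in J2E-KLF3-ER and 1399 FPKM in J2E, and H3f3a with H3f3b to 99.7 FPKM in J2E-KLF3-ER and 105 FPKM in J2E. The Hist2 cluster thus gave 7.44% of this H3 RNA in J2E-KLF3-ER and 12.8% in J2E. No test was made of these shares, which rest on pooled values.

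**Figure D3:**
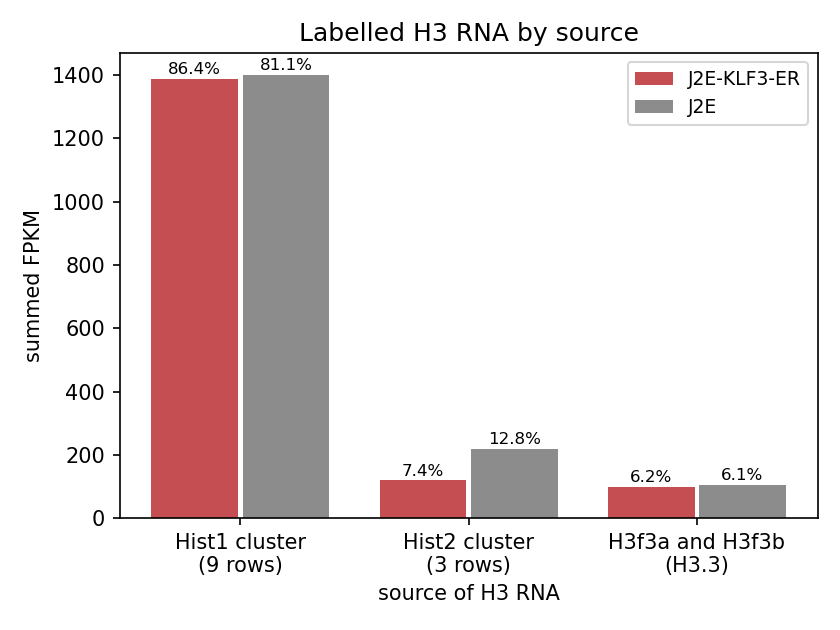
Summed FPKM of H3 rows from the Hist1 cluster, the Hist2 cluster and the variant genes H3f3a and H3f3b in J2E-KLF3-ER (red) and J2E (grey). The percentage above each bar is of the sum over these sources, which leaves out the H3 variant gene Cenpa. The Hist2 bar is 120 FPKM in J2E-KLF3-ER and 220 FPKM in J2E, and the other pairs of bars are close to equal.

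H4 genes held the highest summed FPKM of any class. Their rows summed to 3244 FPKM in J2E-KLF3-ER and 3148 FPKM in J2E, and none of 12 tested genes was called. Row counts and lengths differ between classes, and the commonest H4 row length, 312 bp, is the shortest among the core histone classes. The class sums therefore do not rank RNA amounts. Hist1h4d stood at 728 FPKM in J2E-KLF3-ER and 744 FPKM in J2E, Hist2h4 at 644 FPKM in J2E-KLF3-ER and 667 FPKM in J2E, and the row joining Hist1h4m and Hist1h4n at 707 FPKM in J2E-KLF3-ER and 633 FPKM in J2E, in the authors' deposited table. Hist1h4k had the largest difference, at 46.3 FPKM in J2E-KLF3-ER and 90.3 FPKM in J2E (log2 fold change -0.96, q = 0.121 in the authors' deposited table). Hist1h4a was at 90.8 FPKM in J2E-KLF3-ER and 60.6 FPKM in J2E (log2 fold change 0.58, q = 0.382 in the authors' deposited table). Hist4h4, the lone clustered-type gene on chromosome 6, was at 73.0 FPKM in J2E-KLF3-ER and 73.1 FPKM in J2E in the authors' deposited table.

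Variant genes showed no call among 9 tested, with log2 fold changes between -0.19 and 0.52 in the authors' deposited table. H2afz, which encodes H2A.Z of promoter nucleosomes, was the highest at 158 FPKM in J2E-KLF3-ER and 168 FPKM in J2E (q = 0.874 in the authors' deposited table). H2afv, the second H2A.Z gene, stood far lower at 4.08 and 2.93 FPKM, J2E-KLF3-ER and J2E, in the authors' deposited table. H2afx, whose product is phosphorylated at DNA breaks, was at 103 FPKM in J2E-KLF3-ER and 106 FPKM in J2E in the authors' deposited table. The H3.3 genes H3f3a and H3f3b were at 46.4 and 53.2 FPKM in J2E-KLF3-ER and 53.1 and 52.4 FPKM in J2E in the authors' deposited table. H2afj was at 39.4 FPKM in J2E-KLF3-ER and 29.6 FPKM in J2E, a log2 fold change of 0.41 (q = 0.244 in the authors' deposited table). The macroH2A gene H2afy was at 21.6 and 17.6 FPKM, and H2afy3 at 12.97 and 14.2 FPKM, J2E-KLF3-ER and J2E, in the authors' deposited table. The H2afy3 row spans 212989 bp, against 61929 bp for H2afy, and whether all its reads come from a histone gene was not examined. H2afb1, H2afy2, H1fx and H1foo were not tested and reached at most 1.00 FPKM in either group.

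Of the 15 untested members 14 were below 5 FPKM in both groups and 3 were listed at 0 in both. The exception was the row joining Hist2h2aa1 and Hist2h2aa2, at 127 FPKM in J2E-KLF3-ER and 61.5 FPKM in J2E, to which the authors gave the status of too little data. A separate row for Hist2h2aa2 on the same interval stood at 4.98 FPKM in J2E-KLF3-ER and 10.4 FPKM in J2E (log2 fold change -1.06, q = 0.769 in the authors' deposited table). The names on these rows overlap, so reads may be divided between them, and their opposite differences cannot be read as changes of 2 genes. Hist1h1e and Hist1h2be are likewise listed on 1 shared interval of 38889 bp. Row length is a second limit, since 8 of 13 H4 rows are 312 bp long and 7 of 18 H2B rows 381 bp, as long as the coding sequence alone. Among the 51 tested core histone rows, those with the commonest length of their class had a median log2 fold change of -0.08 over 23 rows and the others 0.12 over 28 rows.

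Position along the clusters was examined next. The chromosome 13 cluster spans 2.22 Mb from 21807632 to 24026720 and holds 53 member rows, of which 44 were tested. Of these, 27 lay above and 17 below 0. Their median log2 fold change was 0.11, beside 0.22 over all 384 tested genes of chromosome 13. Hist1h2bj was the only one called. Its nearest tested neighbours were Hist1h2ag, the H2A gene that starts 281 bp away in the opposite direction (0.38), Hist1h4i (0.42) and Hist1h2bk (0.43), given as log2 fold changes of the authors' deposited table, none of them called. The 7 tested genes of other families within that span had a median of -0.04, with none called. The chromosome 3 cluster spans 96023839 to 96074115, and 7 of its 9 tested genes lay below 0, with a median of -0.67. Hist2h2ac, at 66.7 FPKM in J2E-KLF3-ER and 106 FPKM in J2E, was at -0.67 (q = 0.169 in the authors' deposited table), whereas Hist2h2ab (-0.08), Hist2h4 (-0.05), Hist2h2bb (0.15) and Hist2h2be (0.26) lay nearer to 0. The tested neighbours of Hist3h2a outside the histone family, Rnf187 (0.37), Trim11 (0.16) and Trim17 (0.56), were not called in the authors' deposited table.

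Many H2A and H2B genes share 1 promoter region and are read in opposite directions. With strands taken from RefSeq, 8 such pairs start within 1000 bp of each other, 180 to 335 bp apart, and both genes were tested in 5. Both lay above 0 in 2 pairs, both below 0 in 1 pair, and in 2 pairs the H2A gene was above and the H2B gene below 0. Rows without a RefSeq strand could not be paired, so this split is not complete. Among them are tested H2B rows next to tested H2A rows. These are Hist2h2be (0.26) next to Hist2h2ac (-0.67) and Hist1h2bc (0.39) next to Hist1h2ac (0.31). The Hist1h2ag and Hist1h2bj pair had log2 fold changes of 0.38 and 1.10, and Hist1h2ak and Hist1h2bn had 0.46 and -0.24, in the authors' deposited table. Hist1h2ai and Hist1h2bl had -1.20 and -0.13 in the authors' deposited table, at very unequal levels.

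KLF3 and KLF1 peaks were rare at replication-dependent histone genes. Of 56 tested clustered genes 2 had an assigned KLF3 peak (3.57%, 95% exact interval 0.435 to 12.3), beside 32.4% of all 9619 tested genes. A KLF1 peak was assigned to 1 of the 56 (1.79%, 0.0452 to 9.55), beside 19.1% of all tested genes. Assignment goes to the closest start site, which leaves each gene of a dense cluster a short stretch. The share was therefore also taken over any summit within 1 kb of the start, for tested rows with a RefSeq strand. By that measure 2 of 51 clustered genes had a KLF3 summit (3.92%, 0.478 to 13.5) beside 31.3% of tested genes. None of 51 had a KLF1 summit (upper bound 6.98%) beside 11.4%. Rows without a strand are left out of these counts, among them Hist1h3a, whose row begins 236 bp from a KLF3 summit. The KLF3 count is thus a lower bound for the 56 tested clustered genes. Of 2011 other tested genes within the members' middle range of FPKM, 36.8% had a KLF3 peak (34.7 to 39.0). Over all rows, tested or not, 6 of 80 members had a KLF3 peak (7.50%) beside 16.1% of all 23309 rows, and 2 had a KLF1 peak (2.50%) beside 11.9%. Intervals are Clopper-Pearson, cover counting error only and treat genes as independent.

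**Figure D4:**
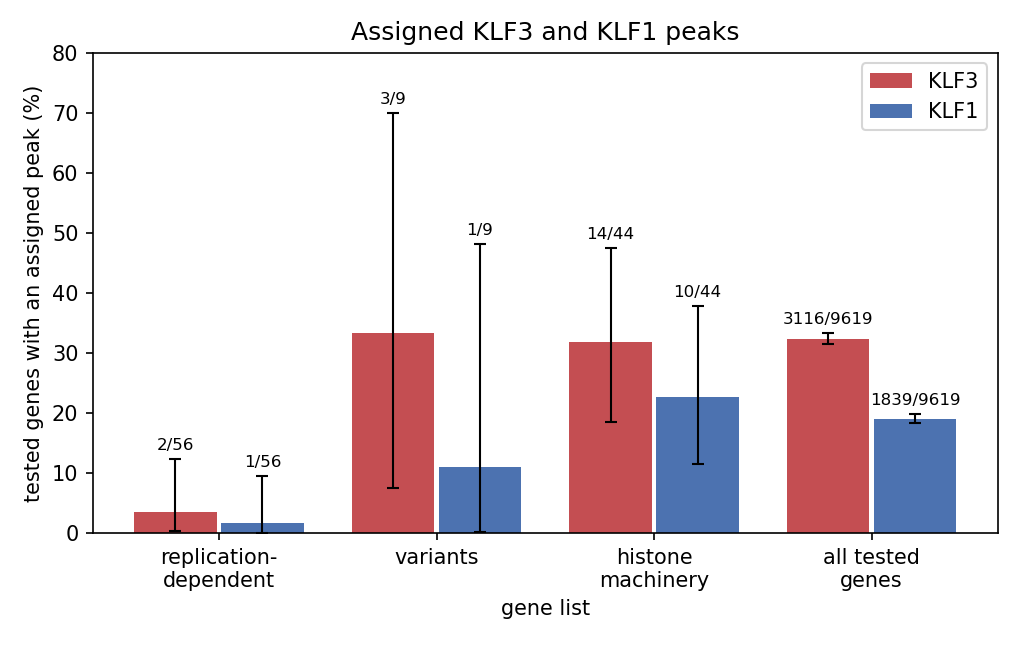
Percentage of tested genes with an assigned KLF3 peak (red) or KLF1 peak (blue) among replication-dependent histone genes, variants, the histone machinery list and all tested genes, with 95% exact intervals and counts above the bars. Replication-dependent genes stand at 3.57% for KLF3 and 1.79% for KLF1, below all tested genes at 32.4% and 19.1%, and the KLF3 interval of the variants runs between 7.49 and 70.1%.

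Among clustered genes the KLF3 peaks lay at 3 places. A 577 bp interval on chromosome 13 (mm9, 23853008 to 23853584) holds 2 listed summits, 82 and 460 bp upstream of the Hist1h4a row, with enrichments of 5.87 and 7.45 as the authors give them. The second of these summits is 236 bp before the Hist1h3a row in genome order, an H3 gene at 136 FPKM in J2E-KLF3-ER and 126 FPKM in J2E in the authors' deposited table (q = 0.845). A narrower peak on chromosome 11 (58767252 to 58767452, enrichment 5.45) was assigned to Hist3h2bb-ps, and its summit lies 828 bp upstream of the rising Hist3h2a. The highest, at chromosome 13, 22142792 to 22143082, with an enrichment of 16.2 and rank 432 of 4579, was classed as distal and lies 7837 bp downstream of the start of Hist1h2bj. The median enrichment of the whole KLF3 list was 7.94. The span of the chromosome 13 cluster holds 6 KLF3 and 4 KLF1 summits, of which 3 and 1 were assigned to histone genes and the others to genes of other families. No KLF3 or KLF1 summit lay within the chromosome 3 cluster, and the summit nearest to the start of Hist2h3c2 was 134568 bp away for KLF1 and 134807 bp for KLF3. The windows upstream of Hist2h3c1 and Hist2h3c2 are near copies, so chromatin reads there may not be placed at a single site. A missing peak at these genes therefore cannot be read as missing binding. The sole KLF1 peak at a clustered gene (chromosome 13, 23839895 to 23840175, enrichment 6.19) lies 1409 bp downstream of the start of Hist1h2bb, an H2B gene at 60.8 FPKM in J2E-KLF3-ER and 55.6 FPKM in J2E in the authors' deposited table.

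Variants had KLF3 peaks at 3 of 9 tested genes (33.3%, 95% exact interval 7.49 to 70.1). H3f3b has a peak in its first kilobase, annotated as intron, 338 bp downstream of its start (chromosome 11, 115885269 to 115885524, enrichment 7.53). H1f0 has a weak peak in coding sequence 581 bp downstream of its start (chromosome 15, 78859180 to 78859424, enrichment 4.05, rank 4523 of 4579). H3f3a is the only tested member with peaks of both factors, which 13.1% of all tested genes have: a KLF1 peak of enrichment 19.4 (chromosome 1, 182708021 to 182708604) overlaps a KLF3 peak of 7.04 (182708301 to 182708581) about 35 kb downstream of its start, and a further KLF1 peak of 5.82 lies 7763 bp upstream. None of these 3 genes was called in the RNA comparison. With 4 called members, no relation of binding to RNA was tested.

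A list of 46 genes that make, process and place histones, of which 44 were tested, showed no call in either direction. Of all tested genes 2.72% were called either way. Cenpa, listed with the chaperones, itself encodes an H3 variant and lies outside the rule for members. At an unadjusted p below 0.05 in the authors' deposited table, 4 were higher (9.09%, beside 7.93% of all tested genes) and 1 lower (2.27%, beside 7.47%). The higher share is near that of all tested genes. Npat, which activates histone clusters at the S phase, was at 31.4 FPKM in J2E-KLF3-ER and 31.7 FPKM in J2E, and Slbp at 59.8 FPKM in J2E-KLF3-ER and 57.8 FPKM in J2E, in the authors' deposited table. The nearest to a call were Npm1, a nucleolar histone chaperone, at 651 FPKM in J2E-KLF3-ER and 480 FPKM in J2E (log2 fold change 0.44, q = 0.0982), and Chaf1a, a subunit of the assembly factor CAF-1 (0.46, q = 0.133), in the authors' deposited table. Ccne2, a cyclin of S phase entry, was at 20.1 FPKM in J2E-KLF3-ER and 32.5 FPKM in J2E (-0.69, q = 0.142 in the authors' deposited table). Lsm10, a ring subunit of the U7 snRNP that cuts histone pre-mRNA, was at 4.13 and 7.34 FPKM, J2E-KLF3-ER and J2E (-0.83, q = 0.347 in the authors' deposited table). These genes were named after their values were seen.

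Of the machinery list, 14 of 44 tested genes had a KLF3 peak (31.8%, 95% exact interval 18.6 to 47.6) and 10 a KLF1 peak (22.7%, 11.5 to 37.8), beside 32.4% and 19.1% of all tested genes. In the authors' annotation, promoter KLF3 peaks lay at the U7 subunit genes Lsm10 (enrichment 11.1) and Lsm11 (6.08), at Slbp (6.91), at the scaffold gene Sympk (18.8) and at Pou2f1 (10.3), the OCT1 gene. The cell cycle genes E2f1, Cdk2, Ccne1 and Ccne2 had promoter KLF3 peaks of 14.9, 10.98, 7.61 and 5.07. Promoter KLF1 peaks lay at E2f1 (19.4), Pou2f1 (19.0), Hinfp (14.7), which encodes an H4 gene activator, Cdk2 (11.8) and Lsm10 (7.69). No peak of either factor was assigned to Npat or Casp8ap2.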

How the data were processed

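The members and gene lists were chosen with earlier results of these data known. The authors deposited 1 RNA table and 2 peak lists. Per the file headers, the RNA table holds 1 pooled FPKM value per group, the log2 fold change of J2E-KLF3-ER over J2E, p-value and q-value, besides a test statistic (a score, not used here). Each peak list holds the authors' enrichment, a ratio, with a summit and the closest start site, per the file headers. The submitters' processing notes name mm9, TopHat2 2.0.10, MACS 1.4.2 and MACS2, with no role stated. Whether J2E libraries were separate cultures is not stated. The J2E part of the spread behind the p-values may thus be technical, apart from the vehicle-treated library. The J2E-KLF3-ER part also holds differences between clones.

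Of the RNA table, 93 blank rows were left out. Adjusting the p-values of tested genes by the Benjamini-Hochberg method gave the deposited q-values to within 5.26e-07. Genes with a q-value below 0.05 are called. The design named count or FPKM tests for per-sample values; with pooled values only, the authors' q-value was used. Distances follow the gene's strand. In the KLF1 list 13 entries whose gene names had become dates were read back as gene names. Of 80 rows, 79 matched a RefSeq gene and 71 a promoter (GRCm38.p6). The rule for named genes takes called members, in each class the 3 highest and the 2 with the largest change, tested variants, members with peaks and tested neighbours of called members. Other genes were chosen after their values were seen. Python 3.11.15, pandas 2.3.3, NumPy 2.4.6, SciPy 1.17.1 and matplotlib 3.10.9 were used. The adjustment, motif search and overlaps were tested on simulated data. No per-sample value column was left unused.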

Additional observations from a re-analysis of the deposited data

How the results depend on the processing

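No paired analysis was possible because the table holds 1 pooled value per group, and for the same reason no replicate could be left out. At q below 0.10 the counts of called members were those at 0.05. An unadjusted p below 0.05 gave 5 higher and 7 lower members, and a 2-fold minimum left 1 higher (Hist1h2bj) and 0 lower. Centring on the median of each chromosome moved the class medians to -0.14 for H1, 0.12 for H2A, -0.24 for H2B and -0.27 for H3, and the rising Hist1h2bj to 0.88 and Hist3h2a to 0.71 on the log2 scale. Other class medians moved by at most 0.1, and no called gene changed sign under the centrings and pseudocounts run. Of peaks above the median enrichment, KLF3 peaks were assigned to 1 member and KLF1 peaks to 1. Within 1 kb, 0 members had an assigned KLF1 peak, and 0 members with a RefSeq strand had any KLF1 summit. Among the machinery genes, 1 was higher at q below 0.10 (2.27%, beside 1.69% of all tested genes), and 4 were higher and 1 lower at an unadjusted p below 0.05 (9.09% and 2.27%, beside 7.93% and 7.47%). The count of any summit within 1 kb, the one without shared rows, the centring of single genes by chromosome and the thresholds for the machinery list were chosen after seeing the data. Depth per library is unknown, so precision at low FPKM cannot be given.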

Other observations

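The KLF1 peak list also carries the authors' mark for genes near a peak that differ in a separate comparison named K1 against K1-ER, whose values were not used here. It marks H3f3a as up and Hist1h2bb as down, the 2 histone genes with a KLF1 peak. The list does not state which of the compared lines is the numerator, so the marks give no direction for KLF1. The KLF3 list has a mark of its own, which is up for Hist1h2bj and absent for the other histone genes with a KLF3 peak. Among these genes only Hist1h2bj was called in the RNA comparison of J2E-KLF3-ER with J2E. The mark thus matches the calls given above and is not taken as a separate result.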
